A study of Mus musculus with 4 samples.

Results

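The NMDA receptor subunit genes Grin1, Grin2a, Grin2b, Grin2c, Grin2d and Grin3a were followed through the nuclei of the adult neurogenic lineage and the glia of the mouse dentate gyrus. They were chosen by name as the subunit genes, and all 6 were found among the 45706 features of the count files. The libraries came from mice of both sexes on a C57BL/6J background that carry a tamoxifen-inducible Cre and the CAGfloxStop-Sun1/sfGFP reporter. Tamoxifen thus switches on a nuclear envelope GFP in cells with an active Cre and in their progeny. The authors give an age of 6 to 8 weeks for the mice, without naming the point of the experiment. Dissection followed induction by 1 to 8 weeks, so animal age at dissection cannot be told apart from the weeks since induction. Every group carried the same alleles and received tamoxifen, and the groups w1, w2, w4 and w8 differed by the weeks between induction and dissection (1, 2, 4 and 8). Each group is 1 library of sorted GFP-positive nuclei from the pooled left dentate gyri of 4 mice, and the tissue was dissected in a solution with kynurenic acid, an antagonist of ionotropic glutamate receptors. By this design the labelled nuclei are meant to comprise only the cells in which the Cre was active, among them radial glia-like cells (RGL) and oligodendrocyte precursors, and what derives from them. The authors' clusters were used: astrocytes (Astro), RGL, neural progenitor cells (NPC), neuroblasts (NB1 and NB2), immature (GCimm1 and GCimm2), young (GCyoung) and mature (GCmat1 and GCmat2) granule cells, oligodendrocyte precursors (OPC), oligodendrocytes (Oligo) and pericytes (Peri).

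NMDA receptors are glutamate-gated cation channels assembled from 4 subunits, of which GluN1, encoded by Grin1, is obligatory and binds the co-agonist glycine or D-serine. The GluN2 subunits encoded by Grin2a to Grin2d bind glutamate and set open probability, deactivation and magnesium block, and GluN3A, encoded by Grin3a, lowers calcium permeability when it replaces a GluN2 subunit. In the developing forebrain GluN2B is known to come before GluN2A, GluN2D is known for early development and interneurons, and GluN2C for cerebellar granule cells and astrocytes.

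All 6 genes lie on the minus strand of GRCm38. By GENCODE release M21, Grin1 (ENSMUSG00000026959) spans chr2:25291181-25319187, Grin2a (ENSMUSG00000059003) chr16:9567898-9995560 and Grin2b (ENSMUSG00000030209) chr6:135713233-136173511. Grin2c (ENSMUSG00000020734) spans chr11:115249169-115267243, Grin2d (ENSMUSG00000002771) chr7:45831883-45878378 and Grin3a (ENSMUSG00000039579) chr4:49661611-49845744. The genes differ widely in length, from 18075 bases for Grin2c to 460279 bases for Grin2b, and the counts include intronic reads, so a UMI count is not comparable between genes without the length. On the opposite strand the antisense gene Grin1os overlaps Grin1, 4 genes overlap Grin2b, 1 overlaps Grin2c and 2 overlap Grin2d, while on the same strand 1 gene overlaps Grin2d and 2 overlap Grin3a.

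Promoter sequence of the GluN1 gene and of the GluN2C gene is shown, the former as that of the obligatory subunit and the latter as that of the member nearly confined to astrocytes. RefSeq windows matched 3 of the 6 members, Grin1, Grin2c and Grin2d. Both are the 250 bases before the start of the gene in RefSeq (GRCm38.p6, minus strand, 5′ to 3′), with every GC box (GGGCGG on either strand, overlaps counted) in capitals.
Grin1 (chr2:25319188-25319437): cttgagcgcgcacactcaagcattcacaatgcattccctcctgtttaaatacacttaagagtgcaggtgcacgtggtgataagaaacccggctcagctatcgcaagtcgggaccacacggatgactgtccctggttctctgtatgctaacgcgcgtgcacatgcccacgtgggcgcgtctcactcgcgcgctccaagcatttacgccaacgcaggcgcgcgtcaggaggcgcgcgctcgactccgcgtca
Grin2c (chr11:115267244-115267493): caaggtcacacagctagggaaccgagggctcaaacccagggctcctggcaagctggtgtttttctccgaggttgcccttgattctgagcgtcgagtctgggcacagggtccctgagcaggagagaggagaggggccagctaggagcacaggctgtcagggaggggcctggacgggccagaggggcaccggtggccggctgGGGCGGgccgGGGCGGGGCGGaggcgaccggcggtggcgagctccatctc
The Grin2c window held 3 GC boxes and had 68.8% G and C, and the Grin1 window held none of these letters and had 58.8%. Of 32851 RefSeq windows of the same length, 32.7% held the GC box, and the median content of G and C was 52.4%. The Grin2d window held no GC box. The E-box CAGCTG and the letters TTGGCA of a nuclear factor I site, on either strand, were in none of the 3 windows and in 13.001% and 12.3% of all windows.

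Of 17046 barcodes, 14367 nuclei with a cluster in the authors' table were used, and the library totals lay between 13227971 and 28595331 UMIs with medians of 4369 to 7703.5 UMIs per nucleus. The libraries shared 22 barcode sequences among these nuclei. Cluster and week cannot be separated freely, since 2927 of the 3356 GCmat1 nuclei came from w8 and NB1 was seen in w1, w2 and w4 only. GCmat1 also held 17 nuclei of w1, 1 week after induction, whereas the authors saw this cluster primarily in w8. Why these 17 nuclei were in w1 was not tested. Against marker lists, all 5 mature granule cell markers were highest in a granule cell cluster of the later stages, all 5 OPC and all 5 Oligo markers in their own cluster, 5 of 6 astrocyte markers in Astro, but only 3 of 6 RGL markers in RGL. Levels are UMIs of a gene per 1000000 UMIs of the same nuclei (CPM), with exact 95% Poisson intervals for counting error. Each week is 1 pool, so no difference between weeks was tested. Changes between clusters were tested with edgeR's quasi-likelihood test on counts summed per cluster and library, with library as a term, and a call needed a fold change of 1.5 or more and an adjusted p (Benjamini-Hochberg, over all genes tested) not above 0.05. With library as a term, these p-values measure how unevenly the clusters differ across the 4 libraries. They measure no spread between replicate pools of a week, of which there are none, and none between animals. Fitted changes use scaling factors (TMM) and the library term, so they can differ in size and direction from ratios of the printed CPM. Grin1, Grin2a, Grin2d and Grin3a were in the expression table from which the authors made the clusters, whereas Grin2b, seen in 95.5% of nuclei, and Grin2c, seen in 0.55%, were not, and p-values of the former 4 genes do not allow for that use. A gene outside the table can move with genes in it, as Grin2b did with Grin2a (Pearson r = 0.92 over the sums). The p-values of Grin2b between these clusters are thus not independent of the clustering either. The authors identified Astro, and told it from RGL, with the help of Grin2c, and described GCyoung by a higher level of Grin2a among other genes. Differences of Grin2c between Astro and other clusters, and of Grin2a from GCimm2 to GCyoung, are therefore given as descriptions, with no p. The same holds for Grin2a over the span from NB1 to GCmat1, which contains that step. The authors also named Grin2a among genes higher in NB2 than in NB1, in GCimm1 than in NB1, and in GCimm2. Its increase at those steps was thus already reported from these data.

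**Figure D1:**
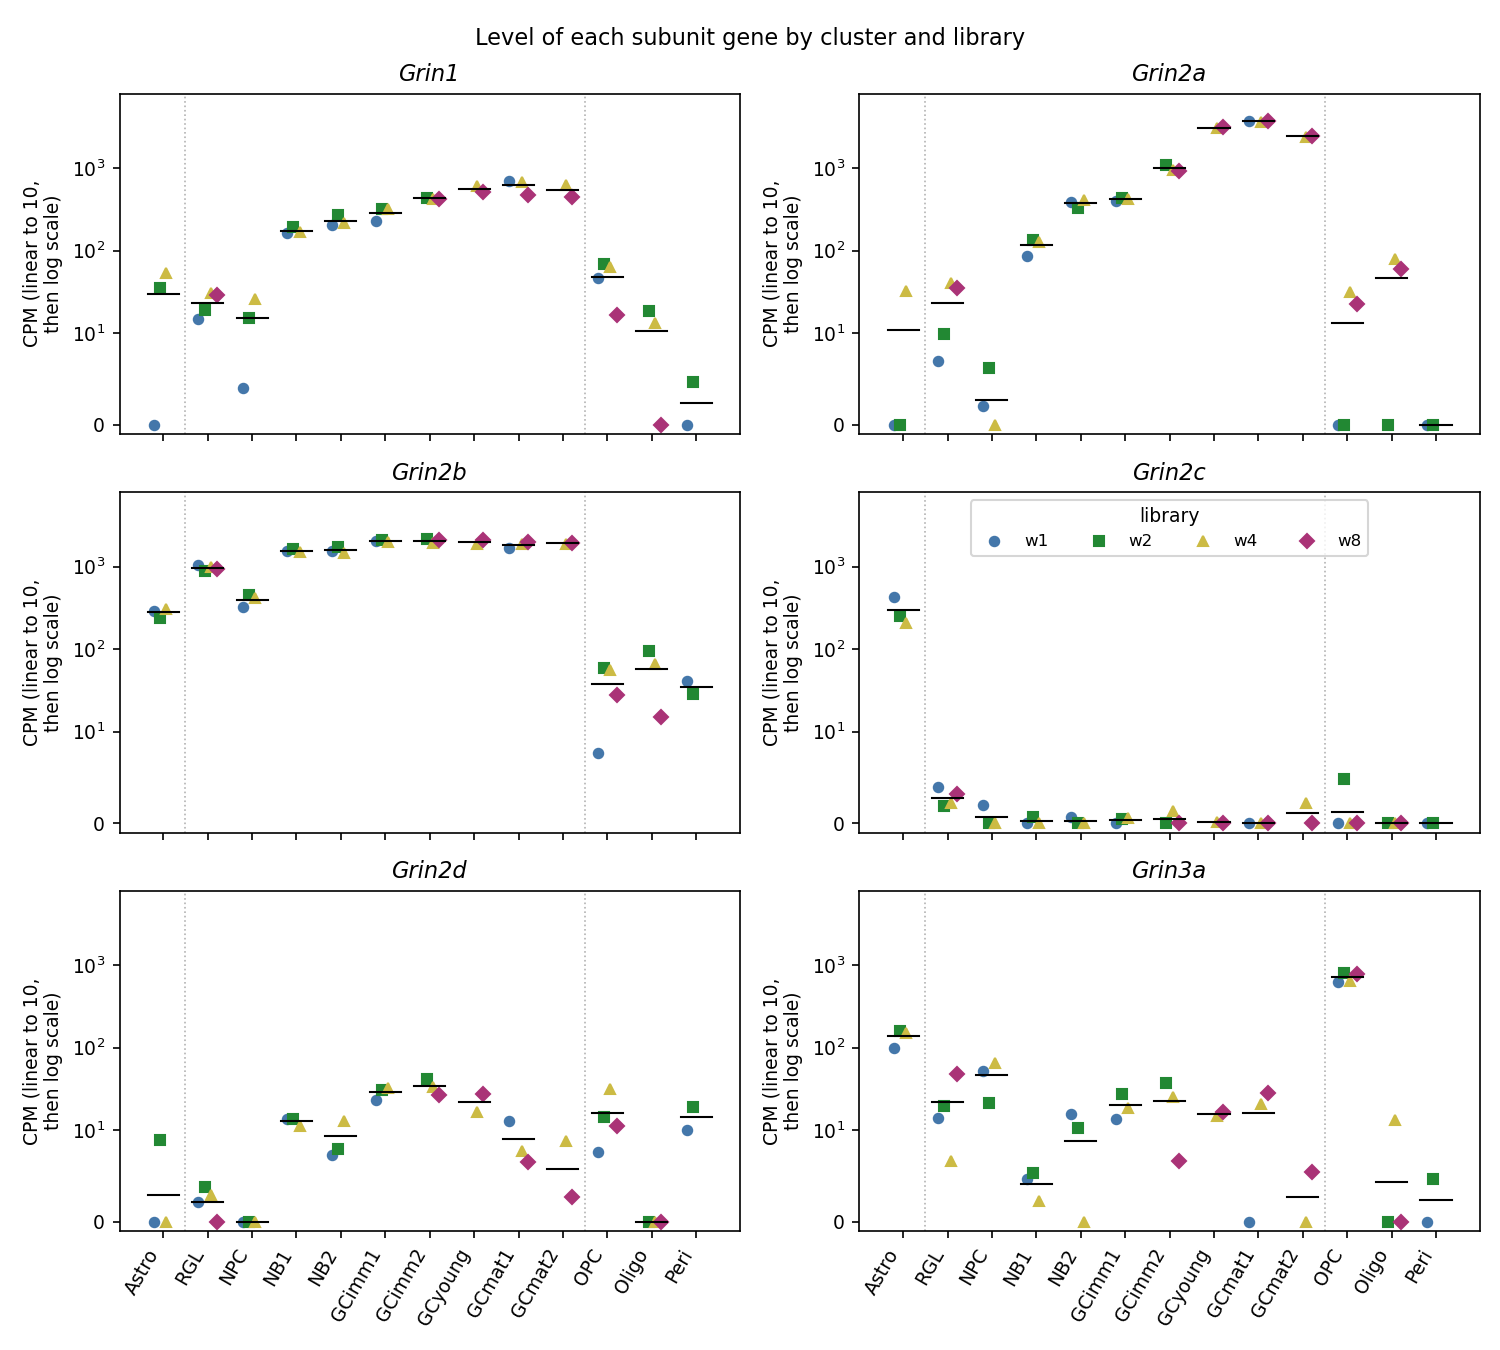
Level of each subunit gene in CPM (vertical axis, linear up to 10 and logarithmic above) in the 13 clusters, with 1 point for each library that holds at least 10 nuclei of the cluster and a bar at their mean. Grin1 climbs from NB1 to GCimm2 and overlaps between GCyoung and GCmat1, Grin2a climbs from NB1 to GCmat1, Grin2b is high from NB1 on, Grin2c stands out in Astro and Grin3a in OPC, where its 4 libraries lie between 629 and 803 CPM.

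Counted over the 9 steps between neighbouring clusters, 24 of 54 changes of the 6 genes were called, which includes the described changes of Grin2c at Astro to RGL and of Grin2a at GCimm2 to GCyoung. At Astro to RGL it was 3 of 6 (1 higher, 2 lower, Grin2c among the latter), where 9.58% of all 13513 genes tested were called. At RGL to NPC it was 4 of 6 (1 higher, 3 lower, all genes 29.5%), and at NPC to NB1 it was 5 of 6 (4 higher, 1 lower, all genes 29.3%). At the latter 2 steps many genes of all kinds were called.

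From NB1 to GCyoung, all calls of the 6 genes were upward. Of all genes called, 61.5% were higher at NB1 to NB2 and 62.0% at NB1 to GCimm1. It was 69.2% at GCimm1 to GCimm2 and 49.1% at GCimm2 to GCyoung. At NB1 to NB2 2 of 6 were called higher (all genes 2.94%), at NB1 to GCimm1 4 higher (12.5%), at GCimm1 to GCimm2 2 higher (9.43%) and at GCimm2 to GCyoung 2 higher (18.9%), 1 of them the described change of Grin2a. At GCyoung to GCmat1 1 was called lower (3.85%), and at GCmat1 to GCmat2 1 lower (7.3%). Over the span from NB1 to GCmat1 4 of 6 were called higher and none lower, the described change of Grin2a among them. The median log2 change was 1.52 beside -0.04 over all genes, of which 40.1% were called. In the fit with all clusters, 3 of 6 were called from Astro to OPC (1 higher, 2 lower with Grin2c among them, all 11548 genes 20.6%) and 2 of 6 from OPC to Oligo, both lower (20%). With 6 genes, none of these counts is set apart from the background by a test.

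**Figure D2:**
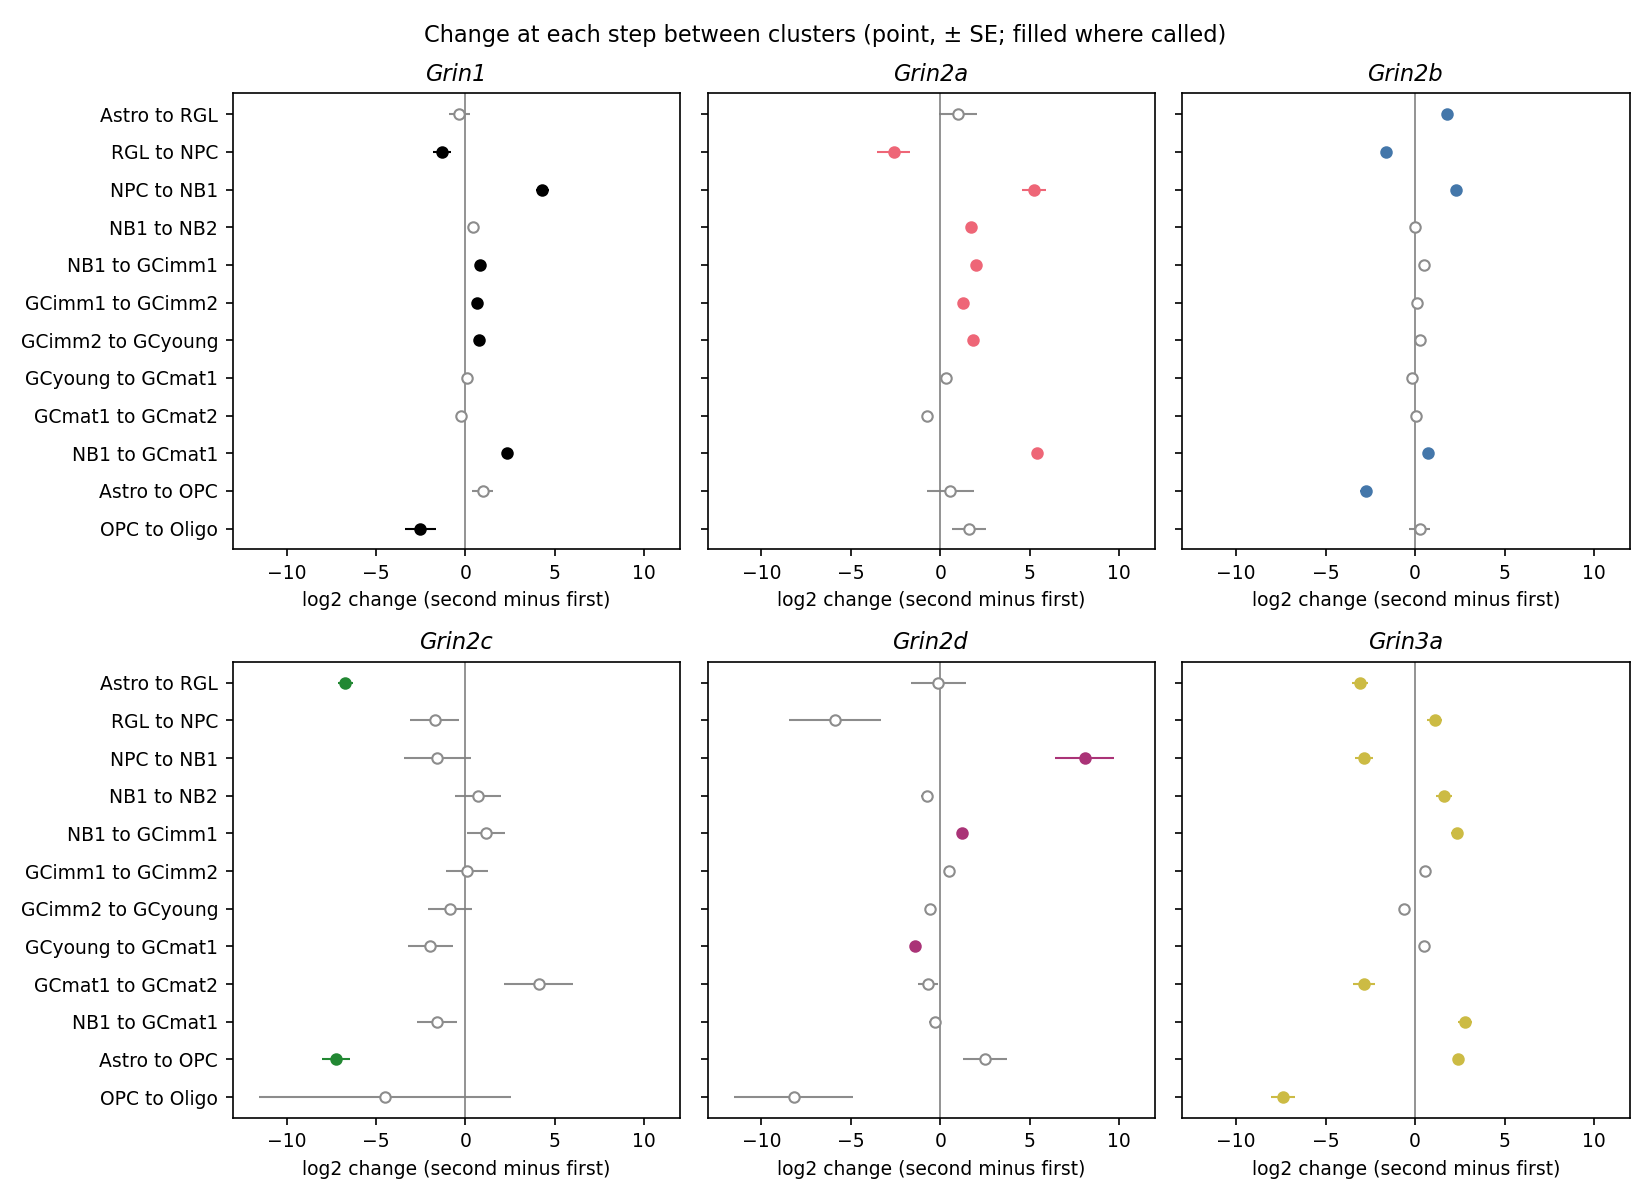
Log2 change of each subunit gene at each step between clusters (horizontal axis, second cluster minus first) with its standard error, filled where called at an adjusted p of at most 0.05 and a fold of at least 1.5. Changes against a cluster at 0 UMIs, such as Grin2d against NPC or Oligo and Grin2c against GCmat1, have no finite fold, and their plotted fitted values are not bounds. Grin2a is filled at 5 neighbouring steps upward, from NPC to NB1 up to GCimm2 to GCyoung, the last of which, like the filled steps of Grin2c, concerns a gene the authors used to name the cluster.

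Grin1, the gene of the obligatory subunit, was low in stem and progenitor cells and climbed in steps through the neurons. In RGL the 4 libraries (w1 to w8) gave 14.8, 18.8, 30.9 and 28.7 CPM, and in NPC it was 4.01, 15.4 and 26.2 CPM in w1, w2 and w4. In NB1 it was 162, 192 and 166 CPM in the same libraries, so all of NB1 lay above all of NPC. Between NPC and NB1 the log2 change was 4.31 ± 0.39 (SE, adjusted p = 1.69e-13), higher in 3 of 3 libraries that hold both clusters.

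Later steps of Grin1 were smaller. In GCimm1 it was at 229, 317 and 315 CPM in w1, w2 and w4, and in GCimm2 at 439, 422 and 426 CPM in w2, w4 and w8. The groups did not overlap, and the log2 changes were 0.81 ± 0.18 (adjusted p = 0.000696) from NB1 to GCimm1, 0.67 ± 0.19 (adjusted p = 0.0106) from GCimm1 to GCimm2 and 0.75 ± 0.20 (adjusted p = 0.00511) from GCimm2 to GCyoung. By pooled counts the ratio was 1.39 from GCimm1 to GCimm2 and 1.37 from GCimm2 to GCyoung, below the 1.5 of a call. The fitted folds at the same steps were 1.59 and 1.68. The call from GCimm1 to GCimm2 was lost with DESeq2 and without w2 or w4, the call from GCimm2 to GCyoung was lost with DESeq2 and without w4, and that from NB1 to GCimm1 was lost without w2. In GCyoung the level was 603 CPM in w4 and 519 in w8, and in GCmat1 it was 698 in w1 (17 nuclei), 670 in w4 and 478 in w8. These overlapped, and Grin1 was not called from GCyoung to GCmat1 (log2 change 0.10 ± 0.20, adjusted p = 0.957) or from GCmat1 to GCmat2 (-0.22 ± 0.20, adjusted p = 0.663). From RGL to NPC Grin1 was called lower, with a log2 change of -1.30 ± 0.51 (adjusted p = 0.049), on 9 UMIs in the 3 NPC libraries. That call was lost in 7 of 12 alternatives, leaving out any 1 of the 4 libraries among them. The 5 mature granule cell markers summed to 30.01, 40.4, 87.6 and 79.7 CPM in RGL of w1 to w8 and to 26.1, 80.1 and 131 CPM in NPC of w1, w2 and w4, with 4 of 5 above 0 in NPC of w1 and all 5 in the others. In both clusters w1 was the lowest library for that sum as for Grin1, and the part of these markers in the Grin1 values was not tested.

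Within the mature granule cells Grin1 was lower in w8 than in w4. In GCmat1 the intervals were 644 to 698 CPM in w4 and 469 to 486 CPM in w8, and in GCmat2 they were 559 to 707 and 413 to 493 CPM. Grin1 was also lower in w8 at matched pseudo-time, the authors' estimate of progress along the trajectory. Between 28 and 29 the level was 669 CPM in 668 nuclei of w4 and 536 CPM in 144 nuclei of w8. In that bin GCyoung was the most frequent cluster in w4 and GCmat1 in w8, so it does not compare mature cells alone. Between 29 and 30, with GCmat1 most frequent in both, it was 703 CPM in 55 nuclei of w4 and 528 CPM in 1140 of w8. Within w8 Grin1 first rose along pseudo-time, from 454 CPM between 25 and 26 through 549 CPM between 26 and 27 to 575 CPM between 27 and 28. From there Grin1 went down to 453 CPM between 30 and 31 and 442 CPM between 31 and 32. In w4 it was at 610, 669, 703 and 560 CPM in the 4 bins from 27 to 31, the last 2 of which held 55 and 27 nuclei of w4. Each week is 1 pool, so week, animal age and pool cannot be told apart here.

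Grin2b, the GluN2B gene, was high in the stem cells, dipped in the progenitors and returned in the neuroblasts. In RGL it was at 1045, 883, 985 and 943 CPM in w1, w2, w4 and w8. In NPC it was at 321, 447 and 419 CPM in w1, w2 and w4, and in NB1 at 1548, 1636 and 1494 CPM. The 3 clusters did not overlap: the log2 change of Grin2b from RGL to NPC was -1.63 ± 0.22 (adjusted p = 2.9e-08) and from NPC to NB1 it was 2.28 ± 0.23 (adjusted p = 6.19e-12), in 3 of 3 libraries each. Both calls held in all 12 alternatives. It was also higher in RGL than in Astro, where it was at 291, 240 and 303 CPM (log2 change 1.79 ± 0.25, adjusted p = 2.11e-07), and this was called in all 11 alternatives that could be run.

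By cluster and library, Grin2b stayed within a narrow range from NB1 on, although it rose along pseudo-time within NB1, as given below. Its library values lay between 1448 CPM (NB2, w4) and 2154 CPM (GCimm2, w2) from NB1 to GCmat2, counting libraries with at least 10 nuclei. Ordered by mean level, GCimm2, GCimm1, GCyoung, GCmat2, GCmat1, NB2 and NB1 each overlapped the next, whereas RGL, NPC, Astro and Oligo each lay below the cluster before them without overlap. No single step from NB1 to GCmat2 was called for Grin2b, the largest log2 change being 0.51 ± 0.20 from NB1 to GCimm1 (adjusted p = 0.0828). Over the whole span from NB1 to GCmat1 it was called, at 0.73 ± 0.21 (adjusted p = 0.00435), and this call was lost without w4 (0.56, adjusted p = 0.229).

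**Figure D3:**
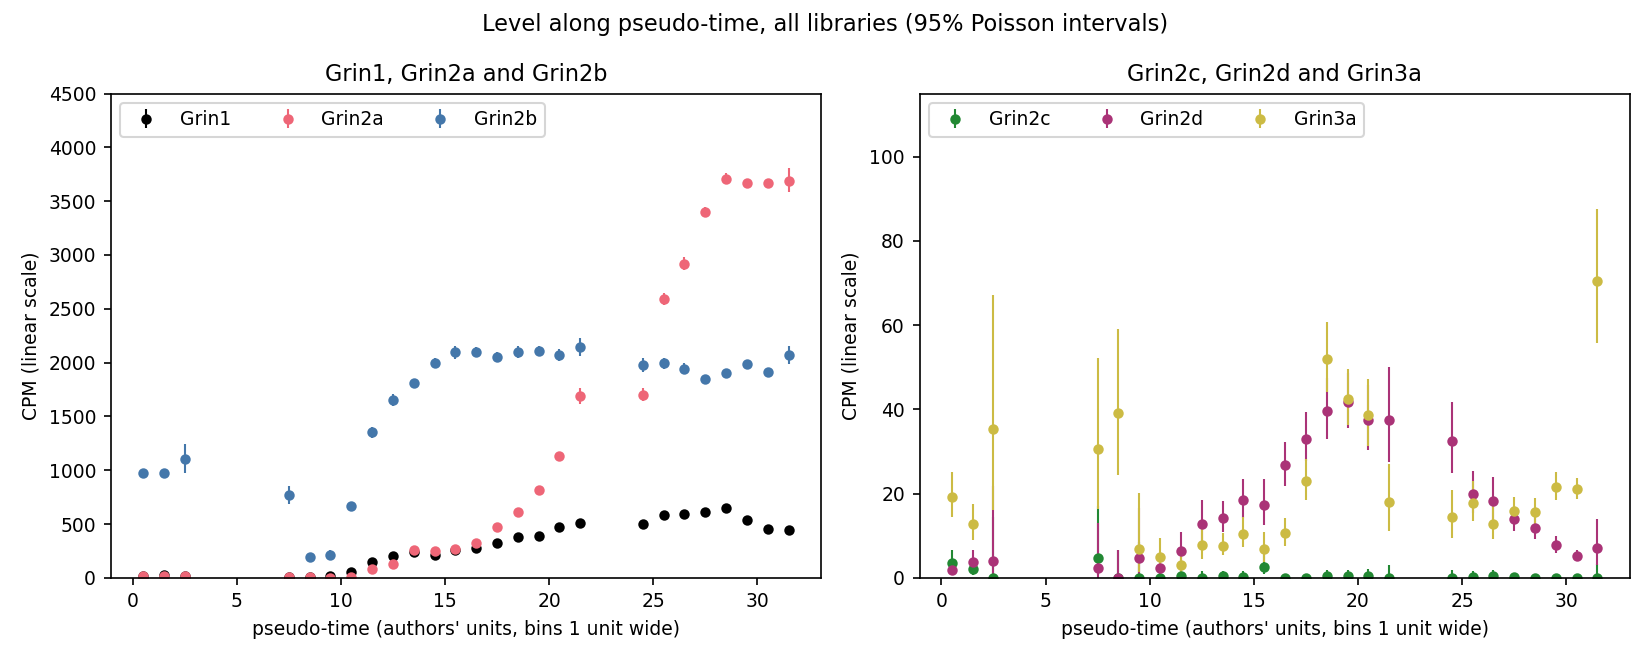
Level in CPM (linear axes) against the authors' pseudo-time, in bins 1 unit wide with at least 20 nuclei, all libraries summed, with 95% Poisson intervals. Grin2b reaches 1993 CPM between 14 and 15 and stays level, Grin2a goes on to 3709 CPM between 28 and 29, Grin1 reaches 652 CPM in the same bin, in which most nuclei come from w4 while later bins hold mostly w8, and Grin2d is highest at 41.8 CPM between 19 and 20.

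Pseudo-time gave the dip and the return of Grin2b in finer steps. It was at 970 CPM in both RGL bins between 0 and 2, at 767 CPM between 7 and 8, at 194 CPM between 8 and 9 and at 208 CPM between 9 and 10. The lowest 2 bins differed by library, at 116 CPM in w1 and 316 in w2 between 8 and 9, and at 124 and 404 CPM between 9 and 10. Grin2b then passed 667, 1353 and 1653 CPM in the next 3 bins and stood at 1993 CPM between 14 and 15. NB1 nuclei were the most frequent in each bin between 9 and 15, so the return took place within that cluster. After that no bin left the range of 1846 to 2147 CPM.

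Grin2a, the GluN2A gene, had the largest change of the 6 genes from NB1 to GCmat1. It was at 85.2, 135 and 125 CPM in NB1 of w1, w2 and w4 and at 403, 437 and 416 CPM in GCimm1. In GCimm2 it was at 1102, 959 and 933 CPM in w2, w4 and w8, and in GCyoung at 3024 and 3101 CPM in w4 and w8. No neighbouring pair of these clusters overlapped. The log2 changes were 1.99 ± 0.27 (adjusted p = 4.57e-08) from NB1 to GCimm1, 1.25 ± 0.26 (adjusted p = 0.000397) from GCimm1 to GCimm2 and 1.84 ± 0.29 from GCimm2 to GCyoung. The step from GCimm1 to GCimm2 was lost without w2 (1.04, adjusted p = 0.123).

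The span from NB1 to GCmat1, which contains the described step from GCimm2 to GCyoung, gave a log2 change of 5.42 ± 0.31. That is a 42.7-fold increase in the fit, and by pooled counts it was 34.7-fold. Grin2a was higher in GCmat1 in 2 of 2 libraries that hold both clusters, 1 of them w1 with 17 GCmat1 nuclei. In GCmat1 Grin2a was at 3753 CPM in w1 (17 nuclei), 3663 in w4 and 3672 in w8, all above GCyoung, but that last step was not called (0.33 ± 0.28, adjusted p = 0.824). Counted per nucleus rather than per UMI, the mean went from 0.446 UMIs in NB1 to 31.9 in GCmat1. GCmat2 lay lower, at 2403 CPM in w4 and 2422 in w8, without overlap with GCmat1. The log2 change from GCmat1 to GCmat2 was -0.72 ± 0.29 (adjusted p = 0.135), and it was called without the filter on low counts (adjusted p = 0.0107) and without w1 (adjusted p = 0.0389).

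The other neuroblast cluster, NB2, already had more Grin2a than NB1. NB2 held 385, 328 and 410 CPM of Grin2a in w1, w2 and w4, near the 403 to 437 CPM of GCimm1 and overlapping it. Against NB1 the log2 change was 1.75 ± 0.27 (adjusted p = 1.1e-05), in 3 of 3 libraries and in all 12 alternatives. Grin2b was not called at this step (-0.02 ± 0.20, adjusted p = 0.999), nor was Grin1 (0.44 ± 0.19, adjusted p = 0.339).

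Before NB1, Grin2a was near the floor. NPC held 3 UMIs of Grin2a among 913391, and the level in NB1 was 32.1 times that in NPC by the pooled counts (counting interval 10.97 to 156). The fitted log2 change was 5.23 ± 0.67 (adjusted p = 6.5e-09). In RGL the level moved with the library, at 6.96 and 9.87 CPM in w1 and w2 and at 40.5 and 35.1 CPM in w4 and w8. The summed level of the 5 mature granule cell markers in RGL moved alongside, at 30.01 and 40.4 CPM in w1 and w2 and 87.6 and 79.7 CPM in w4 and w8, with all 5 above 0 in each library. In GCmat1 that sum was 1695 CPM over all libraries, and its part in the RGL values of Grin2a was not tested. The call of Grin2a from RGL to NPC (log2 change -2.61 ± 0.90, adjusted p = 0.0214) was lost in 4 of 12 alternatives, without w1 or without w4 among them.

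The balance of the GluN2A and GluN2B genes was read as the share of Grin2a among the UMIs of both. This share compares each gene with itself across clusters and not the amounts of the 2 subunits, as the genes differ in length. In NB1 it was 5.21%, 7.62% and 7.75% in w1, w2 and w4, and in GCimm1 it was 16.7%, 17.2% and 17.3%. In GCimm2 it was 33.8%, 33.0% and 31.0% in w2, w4 and w8, in GCyoung 61.4% and 59.9% in w4 and w8, and in GCmat1 69.2%, 66.3% and 65.2% in w1 (17 nuclei), w4 and w8. These 5 clusters followed each other without overlap. NB2, at 20.1%, 16.0% and 22.1%, overlapped GCimm1, and GCmat2, at 55.9% in both w4 and w8, lay below GCyoung.

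**Figure D4:**
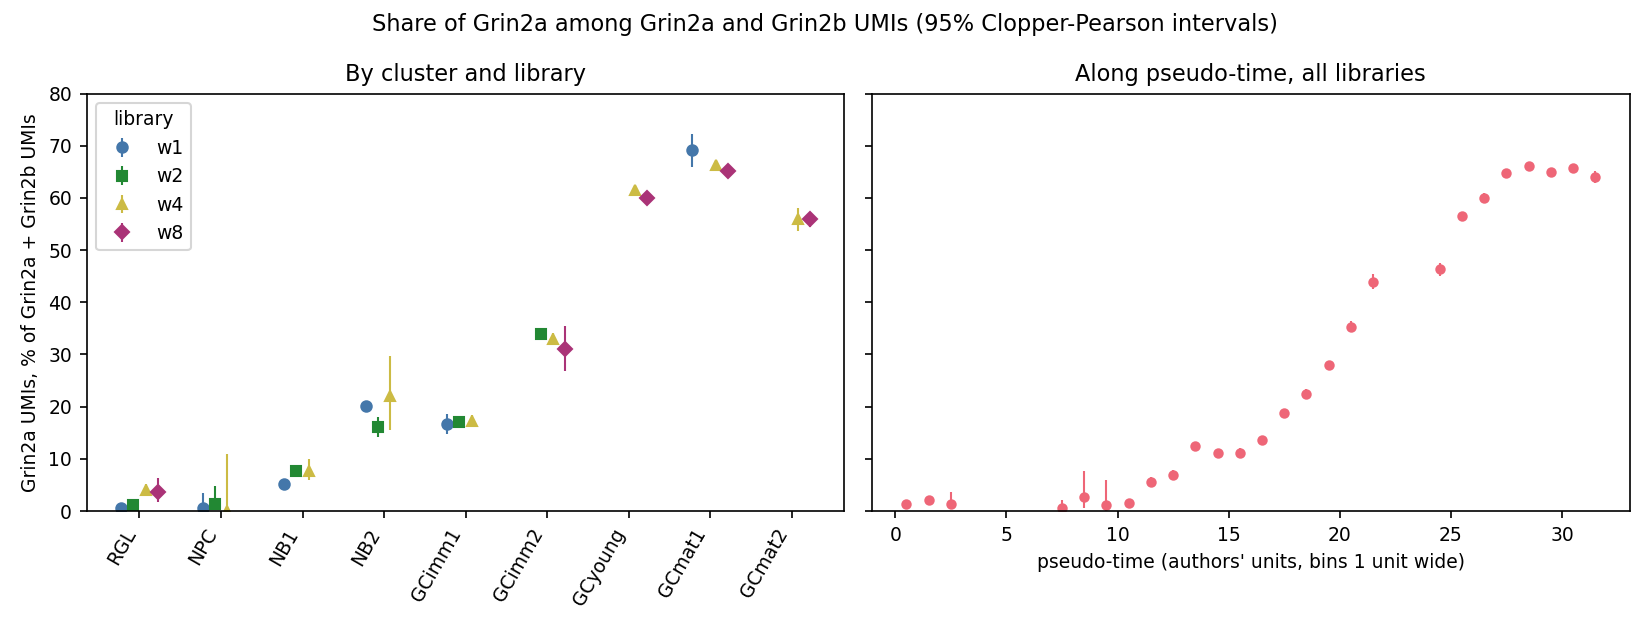
Share of Grin2a among the UMIs of Grin2a and Grin2b in percent, by cluster and library (left, libraries with at least 10 nuclei) and along pseudo-time (right, bins 1 unit wide, all libraries), with 95% Clopper-Pearson intervals for counting error. The share passes from 6.26% in NB1 to 65.3% in GCmat1 and levels off after pseudo-time 27.

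Along pseudo-time the share stood at 1.48% between 10 and 11 and at 12.5% between 13 and 14. It was 11.2% in both bins up to 16 and went up in every bin to 44.0% between 21 and 22. Few nuclei lay between 22 and 24, and no bin there reached 20 nuclei. From 46.3% between 24 and 25 it went to 64.8% between 27 and 28, and the last 4 bins lay between 64.1% and 66.1%.

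Single nuclei showed the same order. More Grin2b than Grin2a UMIs were counted in 96.9% of GCimm1 nuclei and 86.2% of GCimm2 nuclei, and more Grin2a than Grin2b in 77.4% of GCyoung and 88.9% of GCmat1 nuclei. After each nucleus was thinned to 2000 UMIs, leaving out 141 shallower nuclei, these shares were 89.5%, 73.9%, 64.6% and 75.3%. UMIs of both genes were found in 21.2% of NB1, 63.6% of GCimm1, 93.2% of GCimm2 and 100% of GCmat1 nuclei, and after thinning in 13.8%, 43.1%, 75.5% and 97.1%.

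Detection of Grin1 together with Grin2a or Grin2b went up from NB1 to GCyoung and was lower after it. It was found in 41.8% of NB1 nuclei (median 4057.5 UMIs), 97.2% of GCyoung, 95.9% of GCmat1 (median 8138 UMIs) and 94.3% of GCmat2 nuclei, and, among the clusters that are not neuronal, in 7.46% of Astro, 6.56% of RGL, 2.29% of OPC and 2.22% of Oligo nuclei and in 0 of 60 pericytes (median 5108 UMIs), which allows a share of up to 5.0%. At 2000 UMIs per nucleus it was 24.9% in NB1, 43.9% in GCimm1, 56.2% in GCimm2, 68.8% in GCyoung, 64.7% in GCmat1 and 60.3% in GCmat2. Detection depends on how many UMIs 1 transcript yields, so these are shares of nuclei with a UMI and not of nuclei that express the genes.

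Grin2d, the GluN2D gene, had a transient course with its top in the immature granule cells. No UMI was found in NPC, which allows up to 3.28 CPM, whereas NB1 held 13.7, 13.7 and 11.2 CPM in w1, w2 and w4. That makes NB1 at least 4.13-fold higher by the pooled counts, and the step was called (adjusted p = 8.83e-05). GCimm1 held 22.9, 31.0 and 32.0 CPM, without overlap with NB1 (log2 change 1.23 ± 0.24, adjusted p = 7.52e-05, lost without w2). GCimm2 was highest in mean level, at 41.3, 33.7 and 26.6 CPM in w2, w4 and w8, and overlapped GCimm1 and GCyoung. The summed level of the 5 interneuron markers moved alongside, at 13.1 to 27.7 CPM in the NPC libraries, 52.6 to 65.3 in NB1, 73.3 to 113 in GCimm1, 70.6 to 119.9 in GCimm2, 46.0 and 58.8 in GCyoung and 38.4 to 47.7 in GCmat1. It was 12.9 to 38.4 CPM in NB2. Between 1 and 5 of the 5 markers were above 0 in these libraries, and their part in the Grin2d values was not tested.

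Grin2d declined from the young granule cells on. Along pseudo-time it was at 41.8 CPM between 19 and 20, at 37.5 between 21 and 22, at 32.5 between 24 and 25, at 19.9 between 25 and 26 and at 13.9 between 27 and 28, bins in which GCimm2 and then GCyoung nuclei were most frequent. These bins sum all libraries, which differed: between 25 and 26 it was 16.9 CPM in 331 nuclei of w4 and 50.5 CPM in 37 nuclei of w8. The GCmat1 bins went on from 11.8 CPM between 28 and 29 to 5.29 between 30 and 31. By cluster, GCyoung held 16.8 CPM in w4 and 27.2 in w8, and GCmat1 12.8 in w1, 7.76 in w4 and 6.48 in w8. The log2 change from GCyoung to GCmat1 was -1.43 ± 0.26 (adjusted p = 0.000145), lower in 2 of 2 libraries, and the call was lost after thinning (adjusted p = 0.159) and without w8 (adjusted p = 0.12). The drop from GCimm2 to GCyoung was not called (-0.58 ± 0.26, adjusted p = 0.105), and 1 of 2 libraries was lower (w4). In w8 the 28 GCimm2 nuclei held 150112 UMIs, too few to give a direction for Grin2d. The drop was called with RLE factors and without w8. NB2 held 7.31, 7.97 and 12.8 CPM of Grin2d, and its difference from NB1 was not called (log2 change -0.75 ± 0.34, adjusted p = 0.386).

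Grin2c, the GluN2C gene, was nearly confined to the astrocytes. Astro held 429, 249 and 206 CPM in w1, w2 and w4, and RGL 3.91, 1.88, 2.21 and 3.19 CPM in the 4 libraries. By pooled counts, 103 UMIs in Astro against 17 in RGL, the level was 110.3 times higher in Astro, with a counting interval of 65.6 to 197. The 67 Astro nuclei held 103 of the 140 UMIs of Grin2c found in 14367 nuclei. A UMI was found in 67.2% of Astro nuclei (median 4670 UMIs) and 1.08% of RGL nuclei (median 4091 UMIs), against 0 of 3356 GCmat1 nuclei (median 8138 UMIs), which allows up to 0.0894%. After thinning the shares of Astro and RGL were 35.8% and 0.729%. Ordered by mean level, RGL came next after Astro and did not overlap it, and all clusters below RGL overlapped their neighbours.

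RGL and Astro, which share much of their transcriptome, differed in Grin2b and Grin3a besides the Grin2c by which they were told apart. Grin2b was higher in RGL, and Grin3a was higher in Astro (log2 change of Grin3a -3.09 ± 0.44, adjusted p = 3.06e-07). Grin1 (-0.34 ± 0.59), Grin2a (0.99 ± 1.06) and Grin2d (-0.11 ± 1.53) were not called, with adjusted p of 0.801, 0.658 and 0.981, and their wide errors come with 9, 3 and 1 UMIs in Astro. Of the fold changes at this step, the median over all genes was 0.27 on the log2 scale, and it moved by -0.20 with RLE factors and by -0.28 with DESeq2, under neither of which a member changed direction.

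Grin3a, the GluN3A gene, was the subunit gene of the oligodendrocyte precursors. OPC held 629, 803, 639 and 791 CPM in w1, w2, w4 and w8, far above every other cluster and without overlap. Astro came next with 99.6, 160 and 152 CPM, and the log2 change from Astro to OPC was 2.40 ± 0.30 (adjusted p = 3.38e-09), in 3 of 3 libraries. In Oligo it was at 0, 13.1 and 0 CPM in w2, w4 and w8, and the log2 change from OPC to Oligo was -7.40 ± 0.66 (adjusted p = 1e-13). By pooled counts, 491 UMIs in OPC against 1 in Oligo, OPC was 159.7 times higher, with a counting interval of 28.5 to 6322. A UMI of Grin3a was found in 84.7% of OPC nuclei (median 4750 UMIs) and 1.67% of pericytes (median 5108 UMIs), and after thinning in 71.8% and 1.67%. Both changes held in all 9 alternatives.

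Grin2b was lower in OPC than in Astro. The log2 change of Grin2b from Astro to OPC was -2.74 ± 0.36 (adjusted p = 1.22e-08), with 7.67, 58.4, 56.4 and 27.8 CPM in OPC. Grin2c had 103 UMIs in Astro and 1 in OPC, a pooled level 207 times higher in Astro with a counting interval of 36.4 to 8274. Grin1 in OPC was at 46.0, 68.1, 62.6 and 16.7 CPM, and the call from OPC to Oligo (-2.52 ± 0.88, adjusted p = 0.033) was lost in 6 of 9 alternatives, without w2, w4 or w8 among them. Grin2a in OPC was at 0 in w1 and w2 and at 31.3 and 22.3 CPM in w4 and w8, on 5 and 4 UMIs. In Oligo it was at 0 in w2 and at 78.9 and 59.9 CPM in w4 and w8, on 6 and 4 UMIs. These counts are too low to read an order of the libraries. The 5 mature granule cell markers summed to 514 to 624 CPM in OPC and to 18.8, 105 and 14.98 CPM in Oligo of w2, w4 and w8, with 3 or 4 of the 5 above 0 in OPC and 1, 4 and 1 in Oligo, and their part was not tested. Grin2d in OPC was at 7.67, 14.6, 31.3 and 11.1 CPM in w1, w2, w4 and w8, on 1, 3, 5 and 2 UMIs, and overlapped NB1 and GCyoung, while Oligo held no UMI of it. It was not called from Astro to OPC (adjusted p = 0.16) or from OPC to Oligo (adjusted p = 0.0748). The 5 interneuron markers summed to 38.3, 102, 100.2 and 61.3 CPM in OPC of the same libraries, with 2 or 3 of them above 0, and their part was not tested.

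Along the neuronal lineage Grin3a was low, fell into NB1 and rose again after it. It was at 13.9, 19.7, 6.63 and 47.8 CPM in RGL, at 52.1, 21.6 and 65.5 CPM in NPC and at 4.71, 5.38 and 2.24 CPM in NB1. The sum of the 5 OPC markers was likewise higher in NPC, at 76.2 to 131 CPM, than in RGL (15.9 to 36.2) and NB1 (37.7 to 65.0), with 1 to 5 of them above 0. The sum of the 6 astrocyte markers in RGL was 4042, 3519, 3360 and 5211 CPM in w1, w2, w4 and w8, highest in the library with the most Grin3a, and it was 1002 to 1507 CPM in NPC and 504 to 529 CPM in NB1. The part of either list in the Grin3a values was not tested. The drop from NPC to NB1 was called (log2 change -2.87 ± 0.49, adjusted p = 4.02e-06), in 3 of 3 libraries and all 12 alternatives. The difference from RGL to NPC (1.10 ± 0.43, adjusted p = 0.0457) was lost in 6 of 12 alternatives, without w1 or without w4 among them, and the groups overlapped. From NB1 to GCimm1, at 13.7, 27.7 and 18.5 CPM, Grin3a rose by 2.34 ± 0.34 (adjusted p = 4.91e-07), in 3 of 3 libraries and in all 12 alternatives. In NB2 it was at 15.7, 10.6 and 0 CPM in w1, w2 and w4, higher than NB1 in 2 of 3 libraries. The 18 NB2 nuclei of w4 held no UMI of Grin3a among 78060, too few to give a direction against the 2.24 CPM of NB1. The increase to NB2 (1.61 ± 0.43, adjusted p = 0.0228) was lost in 5 of 12, without w1 or without w2 among them.

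In mature granule cells Grin3a differed between nuclei of the same cluster. GCmat1 held 0 UMIs in 17 nuclei of w1, 20.5 CPM in w4 and 28.6 in w8, and GCmat2 0 UMIs in w4, which allows 6.63 CPM, and 5.42 CPM in w8. The log2 change from GCmat1 to GCmat2 was -2.84 ± 0.62 (adjusted p = 0.00103), and it was lost after thinning (adjusted p = 0.168) and without w8 (adjusted p = 0.0536). Within GCmat1 of w8, the 216 nuclei that lack a pseudo-time held 79.2 CPM (68.4 to 91.3) and the 2711 nuclei with one 23.3 CPM (21.4 to 25.4). GCmat1 nuclei with a strong signal of ventral genes were left out of the trajectory by the authors, but their methods give more such nuclei than the GCmat1 nuclei that lack a pseudo-time here, so the latter are not called ventral. Grin2a was at 3522 and 3688 CPM in the same 2 sets, Grin2b at 2046 and 1954 CPM and Grin1 at 461 and 479 CPM. Among nuclei with a pseudo-time the last bin, between 31 and 32, held 70.5 CPM of Grin3a in 99 nuclei, against 21.1 CPM in the bin before. Leaving out the nuclei without a pseudo-time kept the call from GCmat1 to GCmat2. The log2 change from NB1 to GCmat1 was 2.79 ± 0.41 (adjusted p = 9.16e-08). Of the 2 libraries with both clusters, w4 went up. In w1 the 17 GCmat1 nuclei held no UMI of Grin3a among 156160, too few to give a direction.

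**Figure D5:**
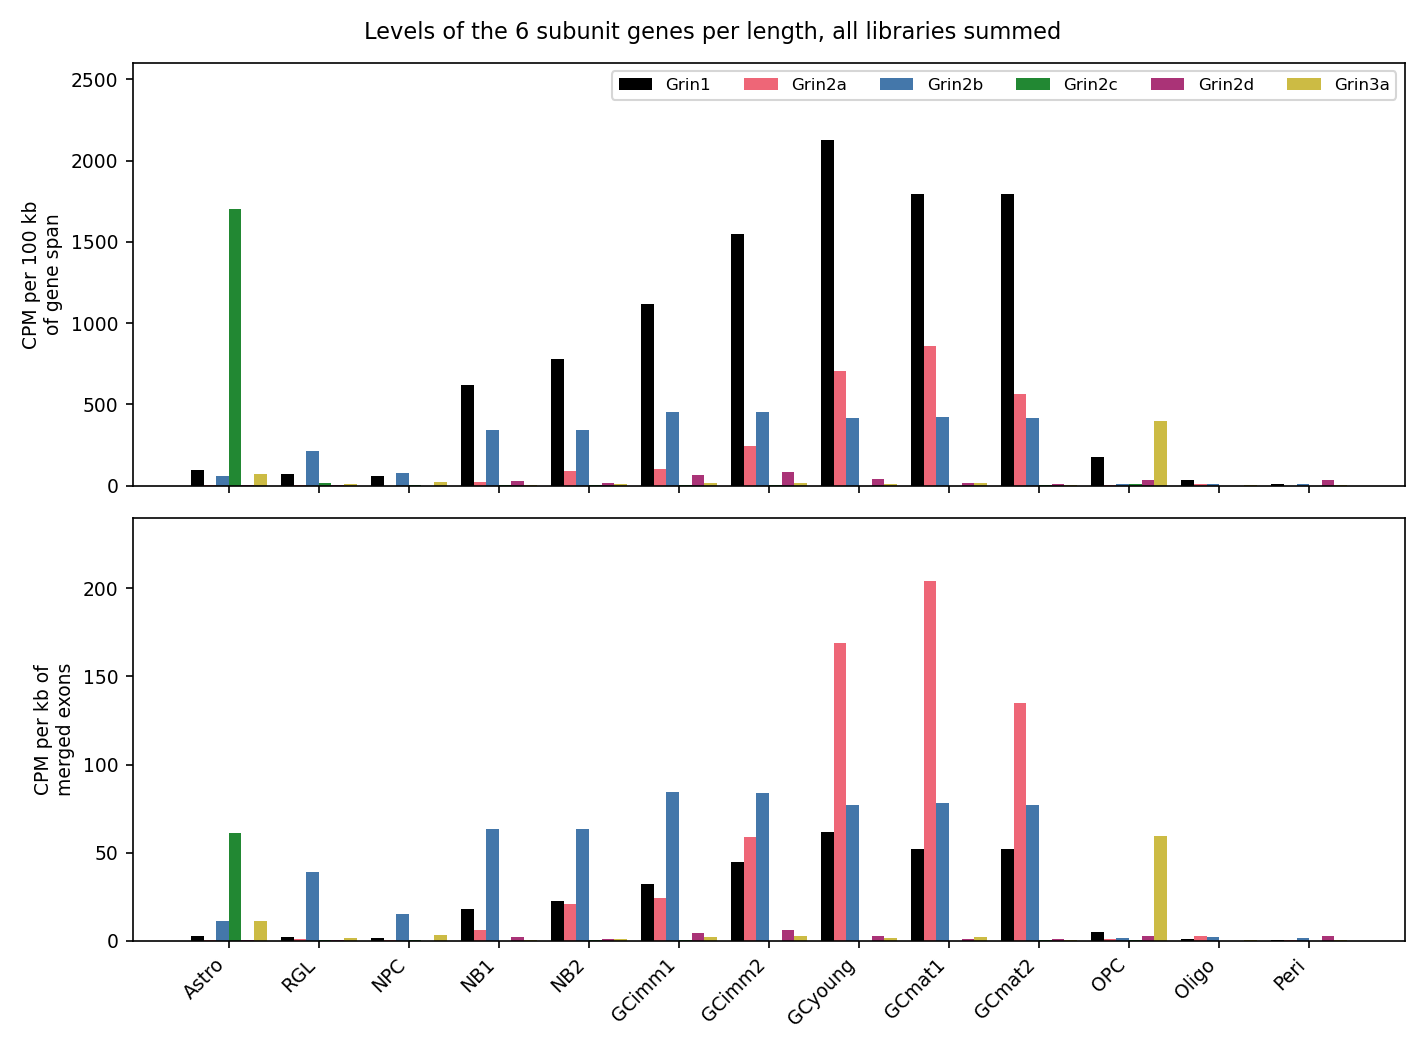
Level of the 6 subunit genes in each cluster divided by the length of the gene, as CPM per 100 kb of gene span (top) and as CPM per kb of merged exons (bottom), all libraries summed. Grin1 is tallest in the neurons by gene span, while by exon length Grin2b is tallest from RGL to GCimm2 and Grin2a from GCyoung on.

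Compared between genes per length, the order depended on which length was used. Per 100 kb of gene span, Grin1 was at 1796 CPM in GCmat1, Grin2a at 857 and Grin2b at 423. Per kb of merged exons, Grin2a was at 204 CPM, Grin2b at 78.4 and Grin1 at 51.9. The position of Grin1 turned with the length, and that of Grin2a above Grin2b in GCyoung, GCmat1 and GCmat2 did not. In NB1 and GCimm1 Grin2b was above Grin2a by either length, at 343 against 24.7 and 454 against 101 CPM per 100 kb. In Astro, Grin2c was above every other member by either length (1700.1 CPM per 100 kb of span and 61.0 CPM per kb of exons). In OPC, Grin3a was (395 and 59.2 CPM).

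Partners of the receptor were read from lists of scaffold, calcium signalling, kinase and phosphatase, and co-agonist and glutamate handling genes. From NB1 to GCmat1, 8 of 10 scaffold genes were called higher and none lower, with a median log2 change of 1.02. Dlgap2 rose by 6.27 ± 0.33 (adjusted p = 1.15e-22), Dlg2, the gene of the scaffold PSD-93, by 4.03 ± 0.28 (adjusted p = 1.16e-17) and Dlgap1 by 2.89 ± 0.26 (adjusted p = 5.08e-14). Dlg1 (0.54 ± 0.19) and Shank1 (0.20 ± 0.21) were not called. Of 14 calcium signalling genes 9 were called higher and none lower (median 1.57). The exchange factors Rasgrf1, which binds GluN2B, and Rasgrf2 rose by 6.97 ± 0.34 and 6.57 ± 0.35, and the kinase Camk2a rose by 5.66 ± 0.26, from 31.4 to 1279 CPM (adjusted p = 7.59e-25). The remaining 5 were not called.

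The 2 remaining lists moved less or downward. Of 10 kinases and phosphatases 3 were called higher and none lower (median 0.13). Among them, Src rose by 1.01 ± 0.22 and Dapk1, a kinase that binds GluN2B, by 0.71 ± 0.19. Of 9 co-agonist and glutamate handling genes tested, out of 10 listed, 1 was called higher and 6 lower (median -1.54). The neutral amino acid transporter Slc1a5 fell by 4.05 (SE 1.08), the glutamine synthetase gene Glul by 2.66 (SE 0.39) and the D-serine transporter gene Slc7a10 by 2.40 (SE 0.74), from levels of 6.42, 22.2 and 2.75 CPM in NB1. The neuronal glutamate transporter gene Slc1a1 was the 1 called higher, at 2.10 ± 0.19 (adjusted p = 6.54e-14). Glul and Slc1a2 are also on the astrocyte marker list, whose sum was 519 CPM in NB1 and 123 CPM in GCmat1. All changes are edgeR log2 changes with the standard error, set against the 40.1% of all genes called.

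The genes most alike to each member were found by Pearson correlation of log2 CPM over the 29 sums of cluster and library, which share libraries and depth. Grin1 was most like Lppr4 (r = 0.987), Elmod1 (0.976) and Syt1 (0.972), and Grin2a most like Atp2b1 (0.965), Fstl4 (0.963) and Scn1a (0.962). For Grin2b they were Clstn2 (0.983), Pvr (0.963) and the AMPA receptor gene Gria1 (0.956). Grin2c was most like Il15 (0.959), Atp13a4 (0.956) and Cd38 (0.955), and Grin2d most like Fbn2 (0.935), Gm37928 (0.922) and 2900079G21Rik (0.90). Grin3a had no close match, with Sord first at 0.822, in sums that leave out OPC, Oligo and Peri. Among the members, Grin1 and Grin2a were most alike (0.931), followed by Grin2a and Grin2b (0.92), and Grin2c was inverse to Grin2b (-0.648).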

How the data were processed

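Nuclei of the dentate gyrus were profiled by the authors with the 10x Chromium 3′ kit in 4 libraries, 1 per group. The authors aligned reads to GRCm38 (mm10 in the submitters' processing notes) with STARsolo 2.7.4a, counted UMIs over exons and introns without multi-mapped reads, and deposited raw counts per feature and barcode. UMI counting used default parameters, and the default of STARsolo counts reads on the strand of the gene. They removed doublets, low-quality nuclei and, in w4, nuclei that might come from 1 outlying male mouse, and deposited a table of log2 expression (scran size factors, 1 added) for 13353 genes, of which only the library, the cluster label and the estimated pseudo-time given for the nuclei were used.

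Raw counts were summed per cluster and library for sums of at least 10 nuclei. The 29 sums of Astro and the trajectory were fitted by edgeR 4.0.16's quasi-likelihood test (glmQLFit and glmQLFTest on genes kept by filterByExpr, TMM factors, cluster and library as terms, 16 residual degrees of freedom, common dispersion 0.0142, 13513 genes), and OPC, Oligo and Peri were added in another fit (38 sums, 22 degrees of freedom, 11548 genes). The fits were also run on simulated counts, drawn around a common mean per gene apart from a set of changed genes. These counts had no effect of library beyond depth, and the outcome is not given here and is not used as support. The standard error is the log2 change over the root of the F statistic. All samples of those clusters entered the fit, so they share 1 estimate of the spread. Intervals are exact at 95% (Poisson for levels, Clopper-Pearson for shares), where no UMI was found the limit is 3 UMIs of the total, and both cover counting error only. Named genes were the 6 members, the 3 genes most correlated with each, and for each pathway list up to 3 genes with the largest called change from NB1 to GCmat1. Dlg1, Shank1, Slc1a1 and Slc1a2 fall outside this rule and were named after their values were seen. Some items that this rule or the study's design would name are not reported here. The members and lists were chosen with earlier results of these data known. Gene names were taken from the count files by gene ID and matched to GENCODE M21. Alternatives were RLE factors, no filter, DESeq2 1.42.0, no library term, at least 30 nuclei, all clusters in the fit, GCmat1 with pseudo-time only, thinning to 2000 UMIs and each library left out. R 4.3.3 and Python 3.11.15 were used.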

Additional observations from a re-analysis of the deposited data

Results flagged for a closer look

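Barcodes without a column in the authors' table hold data outside the comparisons above. In w4, the library with most of them, 1628 such barcodes (median 8943 UMIs) held all 6 subunit genes above the limit that a count of 0 allows, 0.19 CPM. Grin1 was at 657.9 CPM, Grin2a at 4020.5, Grin2b at 2119.3, Grin2c at 1.203, Grin2d at 10.387 and Grin3a at 17.1 CPM. The kept nuclei of w4 held 531, 2496, 1821, 1.15, 16.9 and 20.3 CPM of the same genes. In the other libraries the left-out barcodes went the same way as in w4 for some genes and another way for others. In w1, 410 such barcodes held 512 CPM of Grin2a, 11.97 of Grin2c and 62.1 of Grin3a, beside 190.1, 5.14 and 17.9 CPM in its kept nuclei. In w2, 373 such barcodes held 17.5 CPM of Grin2c and 57.5 of Grin3a, beside 1.71 and 31.6 CPM in its kept nuclei. In w8, 268 such barcodes held 3278 CPM of Grin2a and 24.9 of Grin3a, beside 3507 and 31.9 CPM in its kept nuclei, and no UMI of Grin2c, which allows up to 1.18 CPM. The authors state that nuclei of w4 that might come from 1 outlying male mouse were among those removed, and which of these barcodes those are was not tested.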

How the results depend on the processing

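Across the alternatives, the calls between neighbouring clusters numbered 18 to 25 (24 as reported), between 18 and 22 when 1 library was left out, those from NB1 to GCmat1 numbered 3 or 4 (4) and those between glial clusters 4 or 5 (5). With at least 30 nuclei per sum Astro left the fit, so the step from Astro to RGL had no value. Of the 33 calls, 20 held in every alternative run, 13 were lost in at least 1 and none reversed. The 20 include the changes given with no p, those of Grin2c from Astro to RGL and to OPC and of Grin2a from GCimm2 to GCyoung and from NB1 to GCmat1. Of 811 recomputed log2 changes, 41 lost the call and 4 gained it, and the cause was not tested. The share of Grin2a among Grin2a and Grin2b UMIs moved by more than the spread between libraries in 4 cases: after thinning to 15.7% in GCimm1 (17.1% as reported) and 55.8% in GCmat2 (55.9%), without w8 to 55.9% in GCmat2 and without w4 to 59.7% in GCyoung (61.3%). With 1 library left out it lay between 5.38% and 7.64% in NB1, 16.6% and 20.1% in NB2, 17.0% and 17.2% in GCimm1, 32.9% and 33.8% in GCimm2, 59.7% and 61.4% in GCyoung, 65.2% and 66.2% in GCmat1, and 55.9% in GCmat2. After thinning, 13 of 78 levels moved by over 1 SD (5 higher) and 55 of 78 shares of nuclei left their interval, all 55 lower. DESeq2 called 194 genes at NB1 to NB2 where edgeR called 397, 229 and 520 at GCyoung to GCmat1, and 813 and 1274 at GCimm1 to GCimm2. The split of all calls at Astro to RGL moved with RLE factors, which change the scaling alone (49.7% higher as reported, 34.8% with RLE), and with DESeq2, which changes scaling and test (26.3%). DESeq2 moved it by over 10 points also at NPC to NB1 (50.1% to 40.1%), NB1 to NB2 (61.5% to 72.7%), GCimm2 to GCyoung (49.1% to 37.4%), GCyoung to GCmat1 (41.5% to 24.5%) and GCmat1 to GCmat2 (41.3% to 55.4%). Library is a block in the fits, which compare clusters within libraries, and without it 21 calls were made between neighbouring clusters (24 with it). Between weeks, no paired analysis was possible because each week has 1 library. Depth limits Grin2d in NPC and every gene in Oligo, where 45 nuclei held 219664 UMIs. Grin2c had too few UMIs to order the clusters below RGL, while its 0 UMIs in GCmat1 allow up to 0.103 CPM.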

Other observations

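Grin3b, the remaining subunit gene of the family and not one of the 6, held 278 UMIs in all and was highest in NB2, at 25.8, 17.3 and 25.6 CPM in w1, w2 and w4, beside 7.54, 10.03 and 13.4 CPM in NB1. It was at 0.445 CPM in GCmat1. These values were looked up by name and not tested.

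Grin1os, the gene antisense to Grin1, held no UMI in RGL, NPC, Astro or the other glia and was at 4.95 CPM in NB1 and 18.2 CPM in GCmat1. It was counted as a feature of its own, and Grin1 was at 174 and 503 CPM in the same clusters.

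Over whole libraries, the share of Grin2a among Grin2a and Grin2b UMIs went from 11.99% (w1) through 20.7% (w2) and 57.8% (w4) to 64.4% (w8), which mixes the change along the trajectory with the make-up of each library.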
